A study of Mus musculus with 6 samples.

Results

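Long CpG-dense stretches are autosomal runs of CpG sites that each have at least 60 CpG sites within 500 bp on either side, counting themselves. Such dense sites were joined over gaps of up to 500 bp, and sites of lower density lying between them were not counted. A stretch was kept when it held at least 10 dense sites and measured at least 1000 bp from its first to its last site. The choice used positions only and no methylation value. Of 10569 CpG-dense stretches of any length, 3439 were long, and 3358 of these had at least 200 reads in each of the 3 lines and are described here. They held 483983 CpG sites, 2.44% of the autosomal sites. The readout was bisulfite sequencing of the whole genome, in which a C that stays a C counts as methylated. All lines were mouse embryonic stem cells without endogenous Dnmt1, Dnmt3a and Dnmt3b. One expressed DNMT3B1 and additionally lacked Setd2 (the SETD2 knockout line), one expressed DNMT3B1 with Setd2 intact (the DNMT3B1 line, also written as "with DNMT3B1" below), and one expressed DNMT3A2. Each line came as 1 set of values, so the lines were compared without a p-value, and the intervals given (95%, exact binomial for levels) cover counting error only. The labels list 2 sequencing runs per line, and whether the knockout values hold 1 of them or both is not known. They name a HiSeq and a MiSeq run for the DNMT3B1 and DNMT3A2 lines, and a single and a paired-end run for the knockout. Any difference in sequencing thus cannot be told apart from the loss of Setd2. A sequenced fragment that covers several CpGs is counted at each of them, so reads at neighbouring sites are not independent and the intervals of single stretches and windows are too narrow. The labels give neither the promoter that drove the introduced enzymes nor whether a line was 1 clone.

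CpG islands are stretches of DNA in which CpG sites are frequent, and most mammalian CpG islands carry little methylation. Many hold gene promoters, and islands over regulators of development are often bound by Polycomb complexes in embryonic stem cells. DNMT3A and DNMT3B set methylation on unmethylated DNA, and DNMT1 copies it at replication, so in these cells a mark is not maintained by DNMT1. DNMT3A2 is a short isoform of DNMT3A, DNMT3B1 is an isoform of DNMT3B, and SETD2 places the H3K36me3 histone mark along transcribed genes, which DNMT3B can bind through its PWWP domain.

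Promoters were placed in stretches by the spacing of their CpGs. Promoter windows of RefSeq (build GRCm38.p6) run from 250 bases before to 50 bases after the annotated start, and a window with at least 10 CpGs was matched where the same spacing occurred at 1 place among the CpG sites of the files, which are in build mm9. Matches were found for 12783 of 14281 windows (89.5%), and all 12783 lay on the chromosome of their gene. The germline gene windows below are shown because their stretches were the most methylated of the gene groups, with CpGs in capitals and coordinates in GRCm38.p6. Dazl and Boll encode RNA-binding proteins of germ cells, Sox30 a transcription factor of spermatogenesis, and Meioc a protein needed in meiosis.
Dazl (chr17:50293571-50293870, minus strand): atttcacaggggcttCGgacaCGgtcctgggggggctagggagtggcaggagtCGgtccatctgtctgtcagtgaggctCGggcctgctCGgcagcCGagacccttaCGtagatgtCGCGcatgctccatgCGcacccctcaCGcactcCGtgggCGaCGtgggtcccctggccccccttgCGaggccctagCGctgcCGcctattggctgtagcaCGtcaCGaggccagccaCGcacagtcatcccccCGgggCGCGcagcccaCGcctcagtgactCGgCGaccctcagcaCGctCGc
Boll (chr1:55362679-55362978, minus strand): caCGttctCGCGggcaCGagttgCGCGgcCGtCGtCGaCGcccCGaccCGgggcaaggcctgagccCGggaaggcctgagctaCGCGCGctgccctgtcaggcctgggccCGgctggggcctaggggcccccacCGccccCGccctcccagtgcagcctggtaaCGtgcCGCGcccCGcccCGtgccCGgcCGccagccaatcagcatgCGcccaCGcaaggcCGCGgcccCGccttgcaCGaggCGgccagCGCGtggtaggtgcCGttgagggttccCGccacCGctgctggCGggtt
Sox30 (chr11:45980060-45980359, plus strand): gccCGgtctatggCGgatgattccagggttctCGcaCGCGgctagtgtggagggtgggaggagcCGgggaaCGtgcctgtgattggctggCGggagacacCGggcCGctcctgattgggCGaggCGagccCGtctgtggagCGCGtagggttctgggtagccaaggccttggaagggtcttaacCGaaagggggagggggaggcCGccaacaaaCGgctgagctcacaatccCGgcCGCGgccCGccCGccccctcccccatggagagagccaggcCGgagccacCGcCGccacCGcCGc
Meioc (chr11:102665335-102665634, plus strand): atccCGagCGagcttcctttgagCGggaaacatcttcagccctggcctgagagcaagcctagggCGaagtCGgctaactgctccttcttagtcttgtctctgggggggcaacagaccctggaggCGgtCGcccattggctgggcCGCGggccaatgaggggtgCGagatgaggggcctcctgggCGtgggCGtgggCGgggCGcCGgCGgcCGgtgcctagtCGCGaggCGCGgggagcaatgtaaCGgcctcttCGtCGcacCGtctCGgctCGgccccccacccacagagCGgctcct

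The next windows serve as a contrast to these. Eif4a1 (an RNA helicase of translation initiation) stands for the housekeeping genes. Il17d (a cytokine), Igf2bp3 (an RNA-binding protein) and Mpped1 (a metallophosphoesterase domain protein) belong to stretches in which 1 line differed from another by a large fold. CpGs are again in capitals and coordinates in GRCm38.p6.
Eif4a1 (chr11:69672374-69672673, minus strand): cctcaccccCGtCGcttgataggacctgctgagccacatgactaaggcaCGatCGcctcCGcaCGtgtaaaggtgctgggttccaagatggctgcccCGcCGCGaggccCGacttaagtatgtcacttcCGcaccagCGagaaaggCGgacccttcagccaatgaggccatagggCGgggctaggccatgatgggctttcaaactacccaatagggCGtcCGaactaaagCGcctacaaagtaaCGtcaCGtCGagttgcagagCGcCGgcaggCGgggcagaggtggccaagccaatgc
Il17d (chr14:57524579-57524878, plus strand): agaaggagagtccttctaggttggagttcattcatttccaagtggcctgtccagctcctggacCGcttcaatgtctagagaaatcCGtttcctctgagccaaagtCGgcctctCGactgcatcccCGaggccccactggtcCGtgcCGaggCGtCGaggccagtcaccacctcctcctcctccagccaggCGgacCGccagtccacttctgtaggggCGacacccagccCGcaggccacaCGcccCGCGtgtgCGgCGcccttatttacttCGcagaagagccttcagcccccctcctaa
Igf2bp3 (chr6:49214905-49215204, minus strand): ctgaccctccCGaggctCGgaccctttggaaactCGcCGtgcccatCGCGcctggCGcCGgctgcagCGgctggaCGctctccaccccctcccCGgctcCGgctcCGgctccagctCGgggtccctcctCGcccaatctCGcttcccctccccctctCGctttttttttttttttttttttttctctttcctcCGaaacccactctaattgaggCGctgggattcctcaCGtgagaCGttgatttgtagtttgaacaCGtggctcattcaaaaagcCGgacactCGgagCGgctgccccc
Mpped1 (chr15:83779773-83780072, plus strand): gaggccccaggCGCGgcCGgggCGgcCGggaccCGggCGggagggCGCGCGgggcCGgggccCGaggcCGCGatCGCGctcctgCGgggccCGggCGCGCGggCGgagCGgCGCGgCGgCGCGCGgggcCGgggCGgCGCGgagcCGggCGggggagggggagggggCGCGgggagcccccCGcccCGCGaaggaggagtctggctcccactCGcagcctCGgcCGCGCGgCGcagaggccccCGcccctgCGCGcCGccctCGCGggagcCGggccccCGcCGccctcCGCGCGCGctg

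Several of these windows differed between lines. In the Dazl window, 26 of 267 CpG reads were methylated in the SETD2 knockout line (9.74%), 6 of 233 with DNMT3B1 (2.58%) and 12 of 274 in the DNMT3A2 line (4.38%). The Igf2bp3 window had 0 of 555 methylated reads in the SETD2 knockout line, 17 of 348 with DNMT3B1 (4.89%) and 0 of 431 in the DNMT3A2 line. The Mpped1 window held 3 of 539 methylated reads in the SETD2 knockout line (0.557%), 12 of 155 with DNMT3B1 (7.74%) and 0 of 234 in the DNMT3A2 line. The 17 methylated reads of Igf2bp3 with DNMT3B1 lay at 9 of 25 sites and the 12 of Mpped1 at 11 of 59, so a few fragments could hold them. The Igf2bp3 and Mpped1 windows thus had their highest level in the DNMT3B1 line, but how many molecules this rests on is not known. At Dazl the intervals of the SETD2 knockout and DNMT3A2 lines overlapped. The printed Boll window had 7 of 520 methylated reads in the SETD2 knockout line, 5 of 463 with DNMT3B1 and 8 of 316 in the DNMT3A2 line. Sox30 had 7 of 461, 1 of 433 and 15 of 472, and Meioc 4 of 463, 1 of 474 and 1 of 570, in the same order. Another matched Boll window, not printed, had 0 of 263, 0 of 90 and 0 of 117. The Eif4a1 window had no methylated read among 915 in the SETD2 knockout line, 465 with DNMT3B1 and 587 in the DNMT3A2 line.

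The stretches measured 1000 to 4677 bp, with a median of 1263 bp, and held 28 to 477 CpG sites, with a median of 133. There were 300 stretches of at least 2000 bp, 42 of at least 3000 bp and 5 of at least 4000 bp. Single autosomes carried 100 to 276 of them, most on chromosome 2. Relative to the number of CpG sites they were most frequent on chromosome 19 (2.59 per 10000 sites) and least frequent on chromosome 6 (1.29 per 10000). The median stretch was covered by 1941 CpG reads in the SETD2 knockout line, 1483.5 with DNMT3B1 and 1478.5 in the DNMT3A2 line. The knockout values list only sites with at least 10 reads. In that line 77.1% of the stretches' sites were listed, against 98.7% with DNMT3B1 and 98.99% in the DNMT3A2 line. Of all autosomal sites, 46.5% were listed in the SETD2 knockout line, 85.0% with DNMT3B1 and 85.9% in the DNMT3A2 line.

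The first question was how much methylation the long stretches carried. Pooled over all of them, 0.470% of CpG reads were methylated in the SETD2 knockout line (34916 of 7421506 reads, interval 0.466% to 0.475%). With DNMT3B1 it was 0.159% (8656 of 5434936, 0.156% to 0.163%), and with DNMT3A2 0.201% (10966 of 5451024, 0.197% to 0.205%). The knockout was highest and DNMT3B1 lowest, and the intervals did not overlap. Over all autosomal sites the levels were 5.96%, 2.82% and 7.28% in the SETD2 knockout, DNMT3B1 and DNMT3A2 lines, so the DNMT3A2 line, highest over the autosomes, was not highest in the long stretches.

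The level of the SETD2 knockout line was 2.95 times that of the DNMT3B1 line (interval 2.89 to 3.02) and 2.34 times that of the DNMT3A2 line (2.29 to 2.39). The same ratios over all autosomal sites were 2.11 and 0.818. Both compare unlike sets of sites, since fewer autosomal sites were listed in the knockout. The DNMT3B1 level was 0.792 times the DNMT3A2 level in long stretches (0.770 to 0.814), against 0.387 over all autosomal sites. The ratio of the knockout to DNMT3B1 ranged over the 19 autosomes from 2.59 (chromosome 17) to 3.85 (chromosome 16), and that of DNMT3B1 to DNMT3A2 from 0.593 (chromosome 16) to 0.959 (chromosome 17). Every autosome thus gave the same order of the lines.

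These levels lie near those of a repeat that served as background. A collapsed ribosomal repeat on chromosome 17, read at very high coverage, had a level of 0.590% in the SETD2 knockout line, 0.163% with DNMT3B1 and 0.0978% in the DNMT3A2 line. The long stretches were thus below that repeat in the SETD2 knockout and DNMT3B1 lines and above it in the DNMT3A2 line, and between the SETD2 knockout and DNMT3B1 lines the repeat differed 3.61-fold. Ribosomal repeats can themselves be methylated, so the repeat is not a measure of conversion, and the spiked phage DNA was not used here. Cytosines that escaped conversion and methylated cytosines cannot be told apart in pooled levels of this size. After subtracting the level of the repeat, with values below 0 set to 0, the pooled level was 0 in the SETD2 knockout and DNMT3B1 lines. In the DNMT3A2 line it was 0.103%, so the order of the SETD2 knockout and DNMT3A2 lines reversed.

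Levels of shorter stretches lay close to these. Shorter CpG-dense stretches, 5624 of them with enough reads, had pooled levels of 0.460% in the SETD2 knockout line, 0.151% with DNMT3B1 and 0.214% in the DNMT3A2 line. On the long side of the length limit, 765 stretches of 1000 up to 1100 bp had levels of 0.434%, 0.151% and 0.187%, and on the short side 1027 stretches of 900 up to 1000 bp had 0.441%, 0.148% and 0.195%, in the same order of lines. The 81 long stretches under the read minimum had 2.08% (50 methylated reads) in the SETD2 knockout line, 0.971% (38) with DNMT3B1 and 1.05% (37) in the DNMT3A2 line.

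Single stretches were low throughout. The median stretch had a level of 0.381% in the SETD2 knockout line, 0.0957% with DNMT3B1 and 0.118% in the DNMT3A2 line. No methylated read was seen in 84 stretches of the knockout, 1011 with DNMT3B1 and 869 with DNMT3A2, and at the median depth of a stretch the exact interval of a count of 0 reaches up to 0.190%, 0.248% and 0.249%, in the same order. A level of at least 1% was reached by 275 stretches in the SETD2 knockout line (8.19%), 23 with DNMT3B1 (0.685%) and 59 in the DNMT3A2 line (1.76%). Among shorter stretches 11%, 1.92% and 3.89% reached it, and among autosomal tiles of 2 kb with enough reads 92.6%, 75.9% and 91.6%, in the same order. The most methylated long stretch stood at 6.80% in the SETD2 knockout line, 5.85% with DNMT3B1 and 7.61% in the DNMT3A2 line, and no long stretch reached 10% in any line. The shorter stretches reached 11.9%, 19.7% and 29.2%. They were more numerous and had fewer reads, with medians of 842, 775 and 775 against 1941, 1483.5 and 1478.5 in long ones. Their highest levels and shares at 1% are thus not like for like with those of long stretches.

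**Figure D1:**
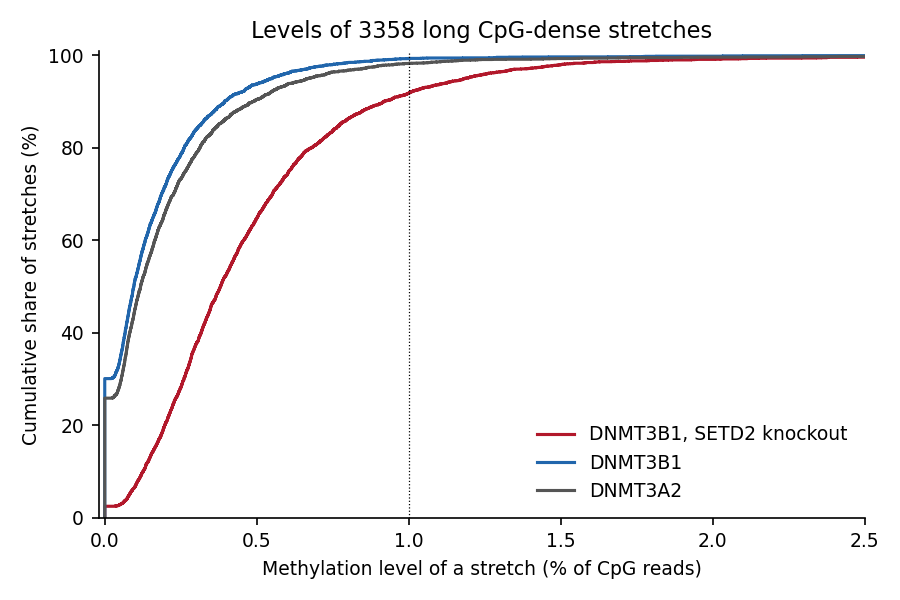
The cumulative share of the 3358 long stretches (vertical axis, %) is plotted against the methylation level of a stretch (horizontal axis, % of CpG reads), with 1 curve per line and a dotted line at 1%. The SETD2 knockout curve lies to the right of both others, with medians of 0.381% in the knockout, 0.0957% with DNMT3B1 and 0.118% with DNMT3A2, and the axis ends at 2.5%.

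The stretches with the highest levels were then counted. The 34 highest stretches of a line held 3.82% of its methylated reads in the SETD2 knockout line, 7.98% with DNMT3B1 and 10.2% in the DNMT3A2 line. Their shares of all reads were 0.713%, 0.890% and 1.02%, in the same order. They were picked by level, so counting error alone also makes their share of methylated reads the larger. In 438, 297 and 329 stretches the interval lay wholly above the pooled level of that line, in the same order. Those intervals are too narrow, so the counts do not measure how far stretches truly differ.

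Stretches were then compared between lines one by one. A stretch was called where its levels differed at least 2-fold, with counts under 3 methylated reads raised to 3, and the intervals of the lines did not overlap. Folds were ranked with these raised counts, while the ratios printed for single stretches use the counts as they are. Between the SETD2 knockout and DNMT3B1 lines, 588 long stretches were called higher (17.5%) and 12 lower (0.357%). The same rule called 34.1% of the 2 kb tiles higher and 0.582% lower, and 6.31% and 0.267% of the shorter stretches. Shorter stretches had fewer reads, with medians of 842 in the SETD2 knockout line and 775 in each other line, so fewer can be called. Their pooled ratio of the SETD2 knockout to DNMT3B1 was 3.05. Shares called in long and shorter stretches are thus not like for like, here and in the comparisons below. After subtraction of the repeat level 132 stretches were called higher and 69 lower. With at least 10 reads per site in every line, 189 of 2701 stretches were called higher and 5 lower. Without any threshold, 2851 stretches had a higher and 469 a lower level in the SETD2 knockout line, while 386 had under 3 methylated reads in both lines and no fold.

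Between the DNMT3B1 and DNMT3A2 lines, 42 long stretches were called higher with DNMT3B1 (1.25%) and 84 lower (2.5%). Tiles were called higher in 0.255% and lower in 49.4%, and shorter stretches in 0.427% and 1.33%. The long stretches thus had a larger share of higher calls and a far smaller share of lower calls than the tiles, but 1420 of them had under 3 methylated reads in both lines. After subtraction of the repeat level the calls were 26 higher and 121 lower, and with at least 10 reads per site they were 11 higher and 47 lower.

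Between the SETD2 knockout and DNMT3A2 lines, 491 long stretches were called higher in the knockout (14.6%) and 23 lower (0.685%). Tiles were called higher in 3.64% and lower in 16%, and shorter stretches in 4.94% and 0.605%. This order turned round with the repeat level subtracted, which left 80 higher and 171 lower calls. With at least 10 reads per site, 149 were higher and 16 lower. The comparisons share libraries, so their calls are not independent of each other. Calls also depend on how many fragments carry the methylated reads. In the higher line no site had more than 2 methylated reads at 153 of the 588 stretches called higher and 2 of the 12 called lower in the SETD2 knockout than with DNMT3B1. The same held for 22 of the 42 stretches called higher and 33 of the 84 called lower with DNMT3B1 than with DNMT3A2, and for 140 of 491 and 6 of 23 between the SETD2 knockout and DNMT3A2 lines.

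**Figure D2:**
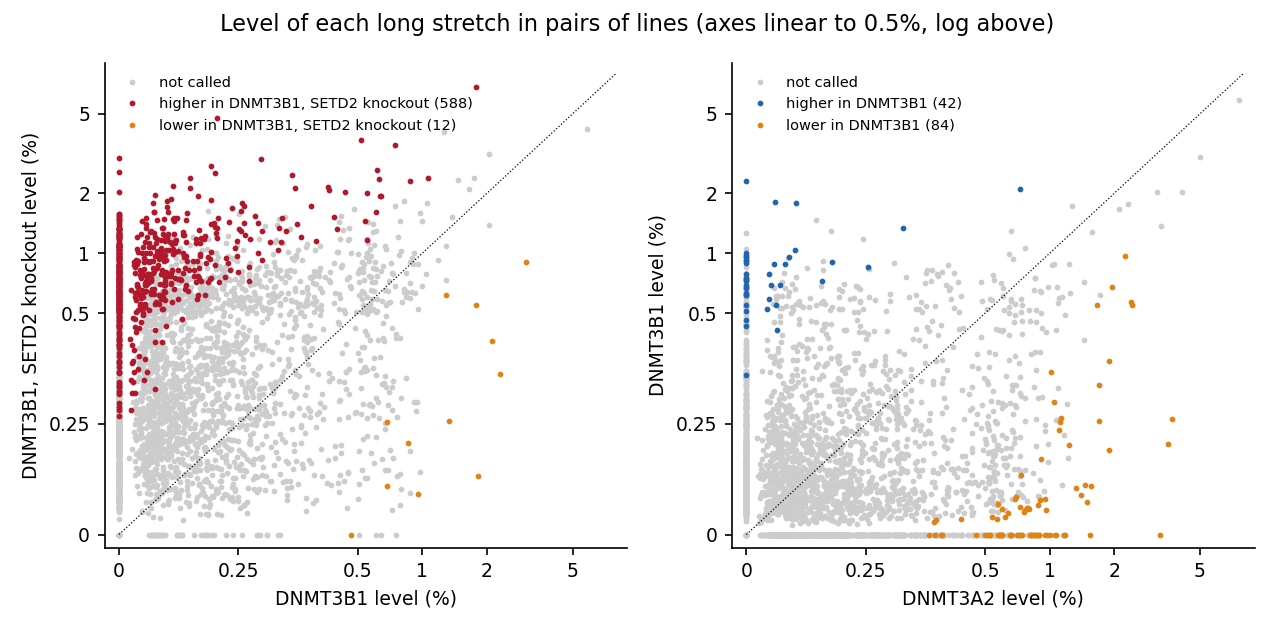
Each point is 1 long stretch, with its level (%) in the line named on the vertical axis against that in the line named on the horizontal axis, both axes linear up to 0.5% and logarithmic above. Coloured points are called higher (588 for the SETD2 knockout over DNMT3B1, left, and 42 for DNMT3B1 over DNMT3A2, right) or lower (12 and 84), grey points are not called, and the dotted line marks equal levels.

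The largest called folds between the SETD2 knockout and DNMT3B1 lines were in stretches with almost no methylation under DNMT3B1. The stretch at chr7:4945043-4946263 (coordinates of stretches are mm9) had 4.75% in the SETD2 knockout line (50 of 1053 reads), 0.205% in the DNMT3B1 line (2 of 977) and 3.56% in the DNMT3A2 line (47 of 1321), a ratio of 23.2 between the SETD2 knockout and DNMT3B1 lines (6.09 to 197, from the counting error of the reads). The stretch of Fut4, a fucosyltransferase gene (chr9:14555477-14556611), had 2.73%, 0.192% and 0.591% in the SETD2 knockout, DNMT3B1 and DNMT3A2 lines, a ratio of 14.2 between the SETD2 knockout and DNMT3B1 lines (4.49 to 72.4). Levels at Pcdh7, a protocadherin gene (chr5:58108360-58111643), were 1.45% in the SETD2 knockout line, 0.116% with DNMT3B1 and 0.171% in the DNMT3A2 line. At Fut4 and Pcdh7 the interval of the SETD2 knockout line was clear of both other lines, whereas at the chromosome 7 stretch it overlapped that of the DNMT3A2 line. No methylated read was seen with DNMT3B1 at chr12:57634009-57636235 (0 of 2877) or chr2:173411137-173412298 (0 of 1593). Their SETD2 knockout levels were 1.44% and 2.56%, and their DNMT3A2 levels 0.0799% and 0.146%. With the DNMT3B1 count raised to 3 methylated reads, the knockout was 13.8-fold and 13.6-fold higher, which is not a confidence limit of the fold. Gm266, a predicted gene (chr12:112723303-112724440), was among the highest stretches of the knockout, with 2.99% against 0 of 991 reads with DNMT3B1 and 0.674% in the DNMT3A2 line.

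The few stretches called lower in the SETD2 knockout line than with DNMT3B1 were low in the DNMT3A2 line too at the 5 with the largest fold. Igf2bp3 (chr6:49163587-49165665) had 0.132% in the SETD2 knockout line (5 of 3786 reads), 1.81% in the DNMT3B1 line (49 of 2701) and 0.0606% in the DNMT3A2 line (2 of 3299). The 49 methylated reads with DNMT3B1 lay at 24 of 193 listed sites, and no site exceeded 33.3%. Mpped1 (chr15:83609825-83610951) had 0.362% in the SETD2 knockout line, 2.30% with DNMT3B1 (13 of 566 reads) and 0 of 899 reads in the DNMT3A2 line. At both stretches the interval of the DNMT3B1 line was clear of those of the other lines. Gnb1, a G protein subunit gene (chr4:154865123-154866659), had 0.255%, 1.33% and 0.329% in the SETD2 knockout, DNMT3B1 and DNMT3A2 lines. Nucks1, which encodes a nuclear DNA-binding protein (chr1:133806933-133808000), had 0.0925% in the SETD2 knockout line, 0.956% with DNMT3B1 (11 reads) and 0 of 1052 reads in the DNMT3A2 line. Those 11 reads lay at 9 sites within 107 bp, so a few fragments could hold them. At Abhd17c, a depalmitoylase gene (chr7:91299597-91300856), the levels were 0.109%, 0.684% and 0.157% in the same order.

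Between the DNMT3B1 and DNMT3A2 lines, Igf2bp3 also had the largest fold in favour of DNMT3B1, with a ratio of 29.9 (7.85 to 254). The stretch at chr11:68198156-68200836 followed, with 0.552% in the SETD2 knockout line, 1.78% with DNMT3B1 (96 of 5400 reads) and 0.104% in the DNMT3A2 line (5 of 4791), a ratio of 17.03 (7.05 to 53.7). Sfpq, an RNA-binding splicing factor gene (chr4:126698421-126699748), had 0.790%, 1.04% and 0.102% in the SETD2 knockout, DNMT3B1 and DNMT3A2 lines. At chr12:81858345-81860532 both DNMT3B1 lines were above DNMT3A2, with 1.17% in the SETD2 knockout line, 0.552% with DNMT3B1 and 0.0628% in the DNMT3A2 line. That stretch also ranked highest among the called folds of the SETD2 knockout over DNMT3A2, with a ratio of 18.6 (6.09 to 92.2).

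In the other direction the largest fold was at Il17d (chr14:58143479-58144729). It had 0.367% in the SETD2 knockout line (14 of 3811 reads), 0% in the DNMT3B1 line (0 of 2290) and 3.26% in the DNMT3A2 line (46 of 1409). With its count raised to 3 methylated reads in the same way, the DNMT3B1 level was 24.9-fold lower than DNMT3A2. This fold is not a confidence limit, and CpG reads are counted in it as independent. The 46 methylated reads with DNMT3A2 lay at 16 of 162 sites within 556 bp, up to 60% at a site covered by 5 reads. There were 3 methylated reads at 15 of these sites and 1 at the other, so a few fragments could hold them all, and this fold and its call rest on them. The printed Il17d window lay outside that patch and had 0 of 308 methylated reads with DNMT3A2. Pitpnm3, a lipid transfer protein gene (chr11:71948711-71949778), had 0.987% in the SETD2 knockout line, 0 of 2068 reads with DNMT3B1 and 1.54% in the DNMT3A2 line. Vdac1, the gene of a mitochondrial outer membrane channel (chr11:52174007-52175235), had 0.192%, 0.0900% and 1.40% in the SETD2 knockout, DNMT3B1 and DNMT3A2 lines. The transcriptional corepressor gene Ctbp1 (chr5:33616827-33618109) had 0.127%, 0.164% and 0.983%, and Atp9a, a phospholipid flippase gene (chr2:168566780-168567951), 0.0798%, 0.503% and 0.909%. At Vdac1 the interval of the DNMT3A2 line was clear of those of both other lines. In the DNMT3A2 line the methylated reads of Vdac1 lay within 318 bp and those of Ctbp1 within 83 bp. The 12 methylated reads of Atp9a in that line lay 1 at each of 12 sites within 209 bp, so a few fragments could hold them.

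**Figure D3:**
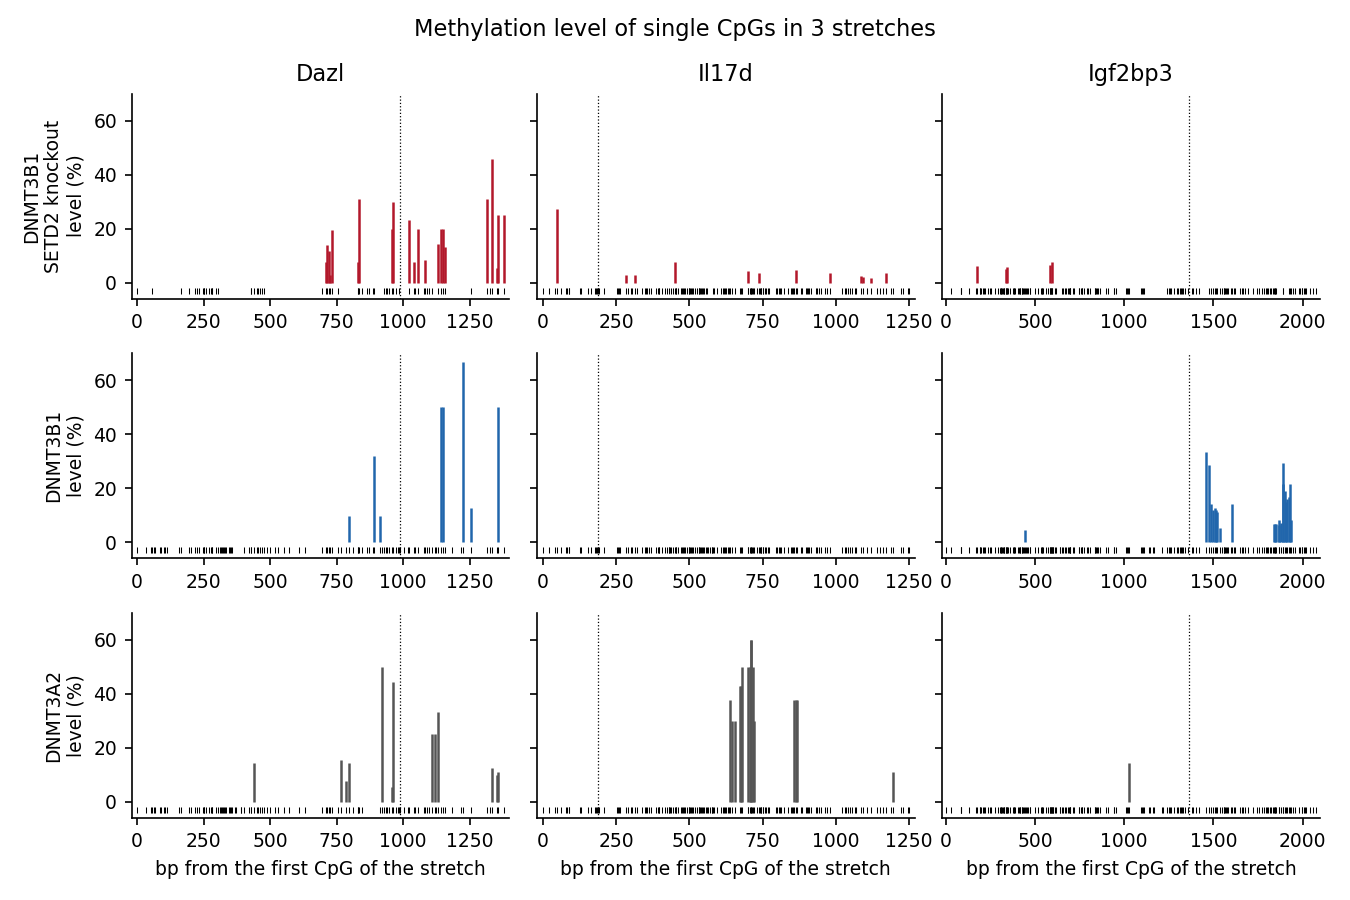
Methylation level of single CpG sites (vertical axis, %) in the stretches of Dazl, Il17d and Igf2bp3 against distance from the first site (horizontal axis, bp), with the SETD2 knockout line on top, DNMT3B1 in the middle and DNMT3A2 at the bottom. Black ticks mark the listed sites and the dotted line the matched start. The methylated sites of Il17d with DNMT3A2 span 556 bp, and Igf2bp3 has 24 methylated sites with DNMT3B1 against 5 in the knockout and 1 with DNMT3A2.

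Some stretches were high whichever enzyme was present. The stretch at chr12:110271349-110272665 had 3.14% in the SETD2 knockout line (78 of 2486 reads), 2.04% in the DNMT3B1 line (37 of 1818) and 3.17% in the DNMT3A2 line (52 of 1640). The highest level with DNMT3B1 and with DNMT3A2 was at chr4:155510993-155512409, with 4.22% in the SETD2 knockout line, 5.85% with DNMT3B1 and 7.61% in the DNMT3A2 line. Only 22, 36 and 42 of its 143 sites were listed in these lines, and 18, 12 and 30 methylated reads carried the values. At least 1% was reached by 317 stretches in at least 1 line and by 7 in all 3. At or above 1%, the SETD2 knockout and DNMT3B1 lines shared 12 stretches (4.36% of those in the knockout, 52.2% of those with DNMT3B1). The SETD2 knockout and DNMT3A2 lines shared 26 (9.45% and 44.1%), and the DNMT3B1 and DNMT3A2 lines 9 (39.1% and 15.3%). Among all long stretches, 8.19% reached 1% in the SETD2 knockout line, 0.685% with DNMT3B1 and 1.76% in the DNMT3A2 line.

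Stretches chosen in 1 line were also read in the others, which the choice did not use. The 59 stretches at or above 1% with DNMT3A2 had pooled levels of 1.16% in the SETD2 knockout line, against 0.458% in the other long stretches, and 0.551% in the DNMT3B1 line, against 0.152%. The 23 chosen with DNMT3B1 had 1.15% in the SETD2 knockout line, against 0.466% in the others, and 1.11% in the DNMT3A2 line, against 0.195%. The 275 chosen in the SETD2 knockout line had 0.277% in the DNMT3B1 line, against 0.150%, and 0.457% in the DNMT3A2 line, against 0.180%. In each case the stretches chosen in 1 line were above the rest in both other lines, with intervals that did not overlap.

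Within stretches the ends were more methylated than the middle. At sites less than 100 bp from an end the level was 0.597% in the SETD2 knockout line, 0.187% with DNMT3B1 and 0.290% in the DNMT3A2 line. At 250 up to 500 bp it was 0.432%, 0.147% and 0.183% in the same order. The end was thus higher than the interior in each line, with intervals that did not overlap. From 500 bp inwards, at sites of 3306 stretches, the levels were 0.473%, 0.163% and 0.197%. Sites with 60 up to 80 CpGs around them had 0.595%, 0.189% and 0.275%, and sites with 100 up to 120 had 0.408%, 0.147% and 0.174%. Position and density go together, since density is lower near the ends.

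Outside the stretches the level climbed over about 2000 bp, and the order of the lines changed. At 1 up to 250 bp outside, 0.914% of reads were methylated in the SETD2 knockout line, 0.293% with DNMT3B1 and 0.559% in the DNMT3A2 line. At 500 up to 1000 bp the levels were 3.14%, 1.05% and 2.91%, and at 1000 up to 2000 bp 4.81%, 1.963% and 5.42%, in the same order. The DNMT3A2 line was thus below the SETD2 knockout line next to a stretch and above it from 1000 bp on. The knockout values again cover only sites with at least 10 reads, so the lines are not compared at the same sites. At 2000 up to 5000 bp the levels were 5.50%, 2.46% and 6.69%.

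**Figure D4:**
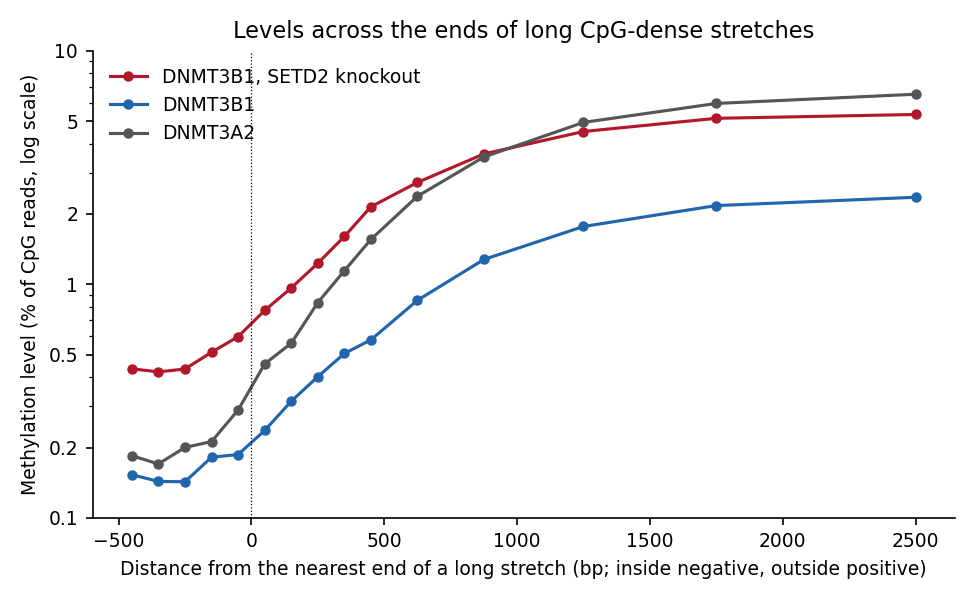
Pooled methylation level (vertical axis, % of CpG reads, log scale) against distance from the nearest end of a long stretch (horizontal axis, bp; inside negative, outside positive), with 1 curve per line. The curves of the SETD2 knockout and DNMT3A2 lines cross near 1000 bp outside, and DNMT3B1 is lowest throughout.

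Stretches of 2000 bp or more had higher levels than those below 1500 bp. Stretches of 1000 up to 1500 bp (2445 of them) had pooled levels of 0.453% in the SETD2 knockout line, 0.151% with DNMT3B1 and 0.194% in the DNMT3A2 line, and those of 2000 up to 3000 bp (258) had 0.551%, 0.198% and 0.254%. The 42 of at least 3000 bp had 0.549%, 0.219% and 0.283%. Among the 5 longest, Brd2 with H2-DMa (chr17:34255248-34259926, 4677 bp), a bromodomain protein gene next to a gene of class II antigen loading, had 0.216% in the SETD2 knockout line, 0.0713% with DNMT3B1 and 0.277% in the DNMT3A2 line. Hic1, a transcriptional repressor gene (chr11:74978898-74983006), had 0.925%, 0.299% and 1.05% in the same order. Mex3b, an RNA-binding protein gene (chr7:90014308-90018391), had 0.276%, 0.214% and 0.0323%. The stretch at chr5:111845476-111849912 had 1.15%, 0.412% and 0.898%, and that at chr3:93247678-93251686 had 0.807%, 0.249% and 0.0989%. The longest stretches thus included low and high ones.

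A matched promoter was found in 2167 of the 3358 long stretches (64.5%), with 2633 genes, 1703 stretches having 1 gene and 464 more than 1. Of 3020 such promoters, 97.2% had their start between the first and last site of the stretch. Among shorter stretches 60.3% held a matched promoter. Stretches with a matched promoter had pooled levels of 0.434% in the SETD2 knockout line, 0.144% with DNMT3B1 and 0.177% in the DNMT3A2 line. Those without had 0.539%, 0.188% and 0.246%. A level of at least 1% was reached by 141 (6.51%), 8 (0.369%) and 29 (1.34%) stretches with a matched promoter, and by 134, 15 and 30 of the 1191 without, in the same order of lines. Of the stretches with a promoter, 352 (16.2%) were called higher and 8 (0.369%) lower in the SETD2 knockout line than with DNMT3B1. Between DNMT3B1 and DNMT3A2, 26 (1.2%) were called higher and 47 (2.17%) lower. For the SETD2 knockout over DNMT3A2 these were 296 (13.7%) and 14 (0.646%). The lists of genes below were set with earlier results of these data known, and their counts are descriptions.

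Germline genes had the most methylated stretches of the lists. These genes are silenced outside the germ line, and methylation of their CpG island promoters is part of that silencing. Of 59 listed genes 4 had their promoter in a long stretch, and their pooled level was 1.90% in the SETD2 knockout line, 0.799% with DNMT3B1 and 1.53% in the DNMT3A2 line, with median stretches at 1.28%, 0.696% and 1.70%. The Dazl stretch (chr17:50431956-50433336) was the highest long stretch of the knockout, with 6.80% (79 of 1162 reads, 5.42% to 8.40%), against 1.77% with DNMT3B1 (20 of 1129) and 2.31% in the DNMT3A2 line (24 of 1041). The knockout had 3.84 times the DNMT3B1 level (2.33 to 6.62), and its methylated reads lay at 22 of 68 listed sites. Sox30 (chr11:45793424-45794575) had 1.05% in the SETD2 knockout line, 0.679% with DNMT3B1 and 1.95% in the DNMT3A2 line, and Boll (chr1:55419326-55420751) had 0.897%, 0.713% and 1.44%. Meioc (chr11:102526464-102527828) had 1.52%, 0.450% and 0.646%. Dazl and Meioc thus had their highest level in the knockout, and Sox30 and Boll in the DNMT3A2 line. Only at Dazl was the interval of the highest line clear of those of both others. By the call rule 2 of the 4 stretches were higher in the knockout than with DNMT3B1, 1 was higher in the knockout than with DNMT3A2, and 1 was lower with DNMT3B1 than with DNMT3A2. Over all stretches with a matched promoter these shares were 16.2%, 13.7% and 2.17%, and 4 stretches are too few to tell the list from them.

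Developmental regulators were the largest list, with 57 of 205 listed genes in 58 long stretches. Their pooled level was 0.721% in the SETD2 knockout line (993 of 137681 reads), 0.159% with DNMT3B1 and 0.249% in the DNMT3A2 line, against 0.434%, 0.144% and 0.177% for all stretches with a matched promoter. The median stretch had 0.660% in the knockout, 0.0973% with DNMT3B1 and 0.216% with DNMT3A2, against 0.353%, 0.0907% and 0.107% over all stretches with a promoter. In the SETD2 knockout line 26 of 58 were called higher than with DNMT3B1 (44.8%) and 18 higher than with DNMT3A2 (31.0%), and none lower. Over all stretches with a matched promoter the shares called higher were 16.2% and 13.7%. With DNMT3B1, 1 was called higher (1.72%) and 3 lower (5.17%) than with DNMT3A2, against 1.2% and 2.17% over all stretches with a matched promoter. Ptf1a, a pancreas and hindbrain transcription factor gene (chr2:19367005-19368271), had 2.12% in the SETD2 knockout line, 0.369% with DNMT3B1 and 0.322% in the DNMT3A2 line. The forebrain homeobox gene Emx2 (chr19:59532597-59534474) had 1.72%, 0.403% and 0.290%, and Pax2, of kidney and midbrain (chr19:44830312-44832049), 1.57%, 0 of 1711 reads and 0.209%. Levels at Tlx1, a spleen homeobox gene (chr19:45225135-45226149), were 1.17%, 0.0883% and 0.738% in the same order.

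The order and spacing of the lines varied among other developmental regulators. Foxa1, a pioneer factor gene of endoderm (chr12:58646257-58647477), had 0.919% in the SETD2 knockout line, 1.18% with DNMT3B1 (11 of 933 reads) and 0.244% in the DNMT3A2 line. Its intervals overlapped, and the 11 methylated reads with DNMT3B1 lay 1 at each of 11 sites within 139 bp. A few fragments could hold them. Hoxa13, of distal limbs (chr6:52209804-52211369), had 0.647% in the SETD2 knockout line, 0.525% with DNMT3B1 and 0.0431% in the DNMT3A2 line (1 of 2321 reads). Both lines with DNMT3B1 were thus above DNMT3A2 at Hoxa13. The DNMT3B1 interval, from 0.2404%, barely cleared that of DNMT3A2, up to 0.2398%. Its 9 methylated reads lay 1 at each of 9 sites, so a few fragments could hold them. Gata2, of blood progenitors (chr6:88143534-88144557), had 0.840%, 0.587% and 0.429% in the SETD2 knockout, DNMT3B1 and DNMT3A2 lines. Hoxa13 and Gata2 had the same order of levels as Ptf1a and Emx2, but at Gata2 all intervals overlapped. The knockout had 1.23 and 1.43 times the DNMT3B1 level at Hoxa13 and Gata2, against 5.74 and 4.27 times at Ptf1a and Emx2. Olig2, of oligodendrocytes and motor neurons (chr16:91225671-91227807), had 0.630%, 0.172% and 0.911%, and Emx1, of the cortex (chr6:85137386-85138499), 0.534%, 0.145% and 0.769%. Olig2 and Emx1 were highest with DNMT3A2, but there the intervals of the SETD2 knockout and DNMT3A2 lines overlapped.

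Imprinted genes, which in mammals are expressed from 1 parental copy, were represented by 9 of 53 listed genes in 9 stretches. Their pooled level was 0.685% in the SETD2 knockout line (167 of 24377 reads), 0.271% with DNMT3B1 and 0.159% in the DNMT3A2 line. The SETD2 knockout was called higher than DNMT3B1 at 3 of them (33.3%) and higher than DNMT3A2 at 4 (44.4%). Over all stretches with a matched promoter these shares were 16.2% and 13.7%, and 9 stretches are too few to tell the list from them. Igf2, a fetal growth factor gene (chr7:149844500-149847091), had 1.29% in the SETD2 knockout line, 0.350% with DNMT3B1 and 0.192% in the DNMT3A2 line. Phlda2, a placental growth regulator (chr7:150687836-150688912), had 1.06%, 0.0873% and 0.135%. Grb10, an adaptor that restrains growth (chr11:11936405-11938134), had 0.984%, 0.371% and 0.201%, and the G protein gene Gnas (chr2:174152773-174156551) 0.716%, 0.506% and 0.233%. All 4 had their highest level in the knockout, with an interval clear of the DNMT3B1 line at Igf2 and Phlda2 but not at Grb10 and Gnas. Rasgrf1, a Ras exchange factor gene (chr9:89803773-89805553), had 0.793%, 0.842% and 0.127%, resting on 6, 9 and 1 methylated reads. Zfp787, a zinc finger gene (chr7:6106750-6108046), had 0.274%, 0 of 1830 reads and 0.271%.

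Housekeeping genes had the least methylated stretches. For 15 of 103 listed genes in 15 stretches the pooled level was 0.264% in the SETD2 knockout line (107 of 40498 reads), 0.0970% in the DNMT3B1 line (30 of 30918) and 0.0661% in the DNMT3A2 line (19 of 28736). No stretch was called between the SETD2 knockout and DNMT3B1 lines or between the DNMT3B1 and DNMT3A2 lines, and 1 was called higher in the SETD2 knockout than with DNMT3A2. Over all stretches with a matched promoter, 16.2% were called higher in the SETD2 knockout than with DNMT3B1 and 13.7% higher than with DNMT3A2. Between DNMT3B1 and DNMT3A2, 1.2% were called higher and 2.17% lower. At such shares 15 stretches would give few calls, so the counts do not set this list apart. Hspa5, the chaperone gene of the endoplasmic reticulum (chr2:34627112-34628148), had the highest level of the list, 0.608% in the SETD2 knockout line (8 of 1315 reads), with 0 of 960 reads with DNMT3B1 and 0 of 1131 in the DNMT3A2 line. Eif5a, a translation factor gene (chr11:69733931-69735269), had 0.351%, 0.143% and 0.0358% in the SETD2 knockout, DNMT3B1 and DNMT3A2 lines. Hnrnpk, an RNA-binding protein gene whose stretch also holds Rmi1 (chr13:58502527-58504703), had 0.388%, 0.106% and 0 of 2486 reads. Eif4a1 (chr11:69484737-69486000), whose window is printed above, had 0.270%, 0.218% and 0.152%, and Polr2b, of RNA polymerase II (chr5:77738152-77739853), 0.158%, 0 of 2023 reads and 0.231%. Levels at Ddx5 with Cep95 (chr11:106648808-106650821), an RNA helicase gene beside a centrosomal protein gene, were 0.205%, 0 of 3419 reads and 0.102%. At Srsf2 with Mfsd11 (chr11:116713394-116715270), a splicing factor gene beside a transporter-like gene, they were 0.187%, 0.208% and 0.0550%, and at Mdh2 with Styxl1 (chr5:136253913-136254992), with the mitochondrial malate dehydrogenase gene, 0.349%, 0.276% and 0.0826%. Set beside the ribosomal repeat, the germline list was above the repeat in all 3 lines, with intervals that did not overlap. The developmental list was above it in the SETD2 knockout and DNMT3A2 lines, whereas with DNMT3B1 its 0.159% and the 0.163% of the repeat had overlapping intervals. The imprinted list was above the repeat with DNMT3B1, and in the SETD2 knockout and DNMT3A2 lines the intervals overlapped. The housekeeping list was below the repeat in the SETD2 knockout and DNMT3B1 lines and overlapped it in the DNMT3A2 line. None of the 58 listed protocadherin genes, all of the clustered kind, had a promoter matched anywhere, so that list gives no value.

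**Figure D5:**
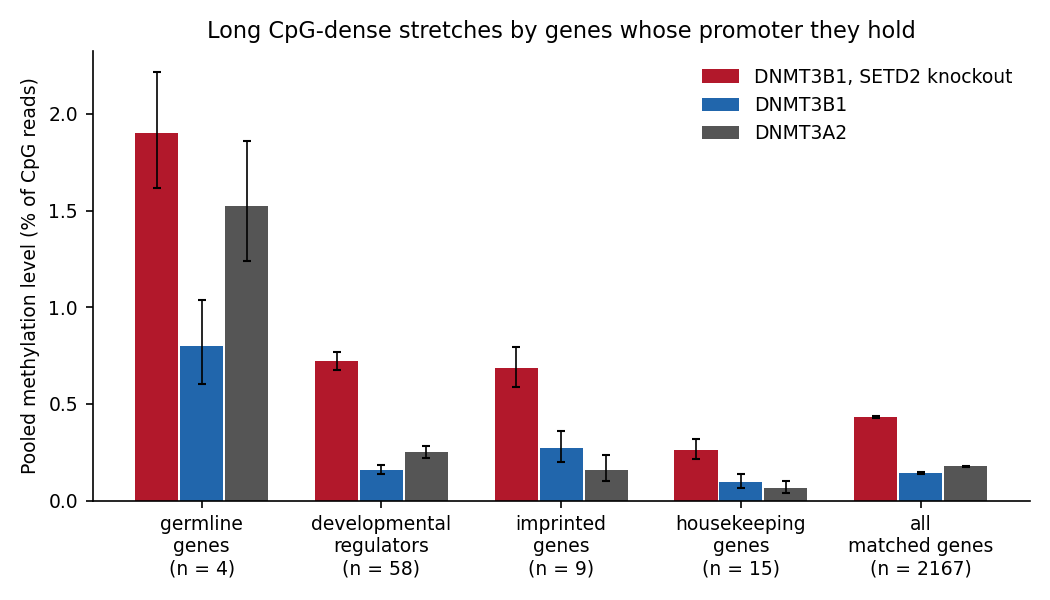
Bars give the pooled methylation level (vertical axis, % of CpG reads) of long stretches that hold promoters of each gene list, with exact 95% binomial intervals and the number of stretches in brackets, the SETD2 knockout line left, DNMT3B1 in the middle and DNMT3A2 right. Germline genes are highest (1.90%, 0.799% and 1.53%) and housekeeping genes lowest (0.264%, 0.0970% and 0.0661%).

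Single sites with high methylation were rare. Among sites with at least 10 reads, a level of at least 50% was found at 16 of 372780 sites in the SETD2 knockout line, 11 of 268548 with DNMT3B1 and 8 of 272318 in the DNMT3A2 line. At autosomal sites outside the long stretches the shares were 1.22%, 0.455% and 1.75%. The DNMT3B1 and DNMT3A2 lines shared 3 of these sites and the knockout shared none, but only 2 of its 16 sites, 7 of the 11 with DNMT3B1 and 7 of the 8 in the DNMT3A2 line had at least 10 reads in all 3 lines. The stretch at chr14:70919424-70920463 held a pair of the shared sites. It had 0.902% in the SETD2 knockout line, 3.04% with DNMT3B1 (28 of 922 reads) and 4.99% in the DNMT3A2 line (32 of 641), and the methylated reads lay at 3 sites with DNMT3B1 and 3 with DNMT3A2, against 8 in the SETD2 knockout line.

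DNA around a CpG also matters to these enzymes: purified DNMT3A favours a pyrimidine and DNMT3B a purine after the CG. Within matched promoter windows, sites were grouped by the number of strands with a purine after the CG. In long stretches, sites with none had 0.450% in the SETD2 knockout line, 0.158% with DNMT3B1 and 0.189% in the DNMT3A2 line, and sites with a purine on both strands had 0.265%, 0.139% and 0.119%. The 44718 sites with a purine on 1 strand, the most numerous, had 0.476%, 0.150% and 0.169%, so the knockout level there was not below that of sites with none. In matched promoters outside CpG-dense stretches, sites with none had 0.745%, 0.278% and 0.984%, and sites with a purine on both strands 1.23%, 0.546% and 0.618%. Outside, both lines with DNMT3B1 were thus higher with purines and DNMT3A2 lower, whereas in the long stretches the SETD2 knockout and DNMT3A2 lines were lower with a purine on both strands than with none, and the intervals of the DNMT3B1 line overlapped.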

How the data were processed

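Whole-genome bisulfite sequencing of 3 lines was analysed, with samples grouped by their titles. The deposited tables give, per the file headers, the count of reads and the count of methylated reads at each CpG site, with both strands of a site on 1 line. The deposited fraction of the SETD2 knockout line is methylated reads over reads, and that table lists only sites with at least 10 reads. The headers name lines and not runs, so each line was taken as 1 set of values. The 2 knockout files, labelled as a single and a paired-end run, were identical and used once, and may hold 1 run or both. Per the submitters' processing notes, positions are in mm9. How reads were aligned, called and freed of duplicates is not given in the sources used here. Amplified duplicates would narrow the intervals falsely.

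A level is the sum of methylated reads over the sum of reads at the sites of a region, and intervals are exact (Clopper-Pearson). Sites above 45 reads (DNMT3A2), 40 (DNMT3B1) or 80 (SETD2 knockout) were removed in all lines. Calls used the 2-fold rule given in the text, and the background was all autosomal 2 kb tiles with at least 200 reads in each line. Ratios of pooled levels carry normal intervals on the log scale, and ratios of named stretches exact conditional binomial intervals. The members, gene lists and rules were chosen with earlier results of these data known, and the grouping of sites by the base after the CG and the promoter windows printed were chosen after the values were seen. Named stretches are the 8 highest of each line, the 5 longest, the 5 largest called folds in each direction of each pair of lines, and the top 3 of each gene list in a line, and some of these are left out of the text. Alternatives were site minimums of 5 and 10 reads, no coverage maximum, a density of 80, a length of 2000 bp and background subtraction. Scripts ran in Python 3.11.15 with scipy 1.17.1 for intervals, matplotlib 3.10.9 for figures, and pandas 2.3.3 with numpy 2.4.6 for tables.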

Additional observations from a re-analysis of the deposited data

Results flagged for a closer look

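Sites of the long stretches above the coverage maximum of a line were left out of the comparisons, apart from the alternative without a coverage maximum, and they carried methylated reads too. At these 509 sites the level was 0.462% in the SETD2 knockout line (83 of 17955 reads), 0.451% in the line with DNMT3B1 alone (89 of 19734) and 0.844% in the DNMT3A2 line (117 of 13861). In the long stretches as analysed it was 0.470%, 0.159% and 0.201%, in the same order, so the left-out sites were higher in the DNMT3B1 and DNMT3A2 lines. The cause was not tested.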

How the results depend on the processing

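Ratios between lines kept their direction under every alternative except subtraction of the repeat level, which put the SETD2 knockout line below the DNMT3A2 line. With at least 5 reads per site in each line (3302 stretches) the levels were 0.460% in the SETD2 knockout line and 0.153% in the DNMT3B1 line, the DNMT3B1 to DNMT3A2 ratio was 0.764 with 19 stretches called higher, and 323 were called higher in the SETD2 knockout than in DNMT3A2. With at least 10 reads (2701 stretches) these levels were 0.451% and 0.149% and the ratios 0.729 (DNMT3B1 to DNMT3A2) and 2.20 (SETD2 knockout to DNMT3A2). Calls, higher and lower, were then 189 and 5 for the SETD2 knockout over DNMT3B1 and 11 and 47 for DNMT3B1 over DNMT3A2, with 149 higher for the SETD2 knockout over DNMT3A2. Fewer sites and stretches entered these fits. Without a coverage maximum (3360 stretches) the levels were 0.483% in the SETD2 knockout line and 0.193% in the DNMT3A2 line, and the ratios 0.831 (DNMT3B1 to DNMT3A2) and 2.503 (SETD2 knockout to DNMT3A2). Of the 2 stretches this added, 1 was the ribosomal repeat, with 841522 reads in the SETD2 knockout line, 619831 with DNMT3B1 and 557444 in the DNMT3A2 line. Over the 3358 stretches as analysed the levels without a maximum were 0.470%, 0.160% and 0.203%, in the same order.

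At a density of 80 (1186 stretches) the levels were 0.444% in the SETD2 knockout line and 0.187% in the DNMT3A2 line, and the ratios 2.82 (SETD2 knockout to DNMT3B1) and 0.843 (DNMT3B1 to DNMT3A2). Calls were 241 and 4 for the SETD2 knockout over DNMT3B1, 21 and 27 for DNMT3B1 over DNMT3A2, and 192 and 10 for the SETD2 knockout over DNMT3A2. At a length of 2000 bp (300 stretches) the levels were 0.550%, 0.202% and 0.259% in the SETD2 knockout, DNMT3B1 and DNMT3A2 lines, and the ratios 2.72 (SETD2 knockout to DNMT3B1) and 2.13 (SETD2 knockout to DNMT3A2). Calls were 115 and 5, 10 and 15, and 91 and 3, for the same pairs in the same order. With the level of the ribosomal repeat subtracted, the levels were 0, 0 and 0.103%, in the same order of lines. Values below 0 were set to 0. No ratio over the DNMT3B1 level can then be formed. The SETD2 knockout line fell below the DNMT3A2 line, against 2.34 times its level without subtraction. Calls were 132 and 69, 26 (with 121 lower) and 80 and 171, for the same pairs in the same order. For the SETD2 knockout over DNMT3A2 the lower calls then outnumbered the higher ones.

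No paired analysis was possible because each line came as 1 set of values, and for the same reason no replicate was left out. Depth limits single stretches: at the median number of reads, the exact interval of a count of 0 reaches up to 0.190% in the SETD2 knockout line, 0.248% with DNMT3B1 and 0.249% in the DNMT3A2 line.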

Other observations

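The 3 sites at or above 50% in both the DNMT3B1 and DNMT3A2 lines had no methylated read in the SETD2 knockout line. At chr2:146047219, 0 of 26 reads were methylated in the SETD2 knockout line, 19 of 31 with DNMT3B1 and 23 of 39 in the DNMT3A2 line. At chr14:70919603 the counts were 0 of 20, 13 of 21 and 17 of 23, and at chr14:70919607, 4 bp away, 0 of 23, 14 of 21 and 14 of 20, in the same order of lines. These sites were singled out after their values were seen, and neighbouring sites share reads.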
